A study of Mus musculus with 18 samples.

Results

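*Foxf2*, *Thbd* and *Plpp3* are 3 of the 20878 genes measured in 18 tumors grown from K7M2 cells, a mouse osteosarcoma line of Balb/c origin. They were chosen by their clear falls in tumors of knock-down cells in Balb/c mice, outside the group of mast cell genes that also fell there. Their values in that comparison are therefore given as a description, with no test, and only the NSG tumors, which had no part in the choice, gave tests of the same difference. RNA depleted of ribosomal RNA was sequenced from 4 groups of tumors. K7M2 cells carrying a control shRNA (*ATRX*-CT) or an shRNA against ATRX (*ATRX*-KD), delivered by lentivirus, were grafted under the skin of immunocompetent Balb/c mice (4 tumors of each kind of cells) or immunodeficient NSG mice (5 of each). All mice are described as young females, and each tumor came from its own mouse. NSG mice carry the *Prkdc* scid mutation and an *Il2rg* null allele, lack T, B and NK cells, and keep macrophages and mast cells. Whole cages were assigned to one kind of cells, so cage and knock-down cannot be told apart, and the knock-down rests on a single mouse cell line.

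*Foxf2* encodes a forkhead transcription factor of mesenchymal cells and of the pericytes of small vessels, known as a target of hedgehog signaling and as a regulator of Wnt ligands. *Thbd* encodes thrombomodulin, the endothelial surface receptor that binds thrombin and turns it from clotting toward activation of protein C. *Plpp3* encodes a lipid phosphate phosphatase of the cell surface that removes the phosphate of lysophosphatidic acid and of sphingosine 1-phosphate, a pair of lipid messengers of vessels and connective tissue. In endothelium, *Thbd* is a well-known target of the flow-responsive factors *Klf2* and *Klf4*, and *Plpp3* has also been placed among flow-responsive genes.

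On mm10, *Foxf2* lay at chr13:31625816-31631406 on the plus strand, with 2 exons and a transcript of 2366 nt that encodes 446 residues. *Thbd* lay at chr2:148404471-148408188 on the minus strand, as 1 exon of 3718 nt that encodes 577 residues. *Plpp3* spanned 75421 bases at chr4:105157347-105232767 on the plus strand, with 6 exons, a transcript of 3162 nt and 312 residues. The genes thus lay on 3 chromosomes, and no other gene of the expression matrix overlapped them. For *Thbd* and *Plpp3*, no stretch of 75 nt was shared with transcripts of another gene, whereas 24 of 2289 such stretches of *Foxf2* (1.05%) were also part of *Gm27516*, a predicted microRNA gene annotated within the *Foxf2* locus on the opposite strand.

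The 250 bases before the start of *Foxf2* and of *Plpp3* are shown because both genes were low in the same Balb/c tumors. A reader may want to compare what precedes them. *Thbd* was low in these tumors too, but the set of promoters at hand held no entry for it. The sequences are those of RefSeq on GRCm38.p6, read 5′ to 3′ on the strand of the gene, at chr13:31625566-31625815 for *Foxf2* and chr4:105157097-105157346 for *Plpp3*. Capitals mark matches to the Klf core CACCC or to the Sp GC box GGGCGG, each searched on both strands (the Klf core found on the other strand reads GGGTG here).
Foxf2: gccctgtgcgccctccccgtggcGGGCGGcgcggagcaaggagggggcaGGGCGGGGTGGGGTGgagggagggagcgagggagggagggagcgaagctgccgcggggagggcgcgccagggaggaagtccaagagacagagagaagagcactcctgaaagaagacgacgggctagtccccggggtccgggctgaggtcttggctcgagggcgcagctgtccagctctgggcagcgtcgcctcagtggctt
Plpp3: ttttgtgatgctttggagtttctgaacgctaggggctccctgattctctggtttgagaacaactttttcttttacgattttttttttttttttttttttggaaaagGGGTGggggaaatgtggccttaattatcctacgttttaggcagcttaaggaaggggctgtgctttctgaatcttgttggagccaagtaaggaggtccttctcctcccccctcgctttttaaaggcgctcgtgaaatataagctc
The 2 windows differed in base composition. With 50 bases after the start included, the *Foxf2* window held 71.3% G and C, more than 92.2% of the 32851 promoters of the same length, and 27 CpG dinucleotides. That of *Plpp3* held 46.0% G and C, more than 25.1% of promoters, and 11 CpG dinucleotides. The Klf core was found 2 times in *Foxf2* (at -196 and -191 from the start) and 1 time in *Plpp3* (at -144), and 57.5% of all promoters held it. The GC box was found 2 times in *Foxf2* (at -227 and -201, the latter sharing 1 base with a Klf core) and 1 time in *Plpp3* at position 34 after the start, outside the stretch shown, and 35.7% of promoters held it. The forkhead motifs GTAAACA (3.65% of promoters) and ATAAACA (4.6%) and the TATA box TATAAA (13.6%), searched on both strands, were in neither window. A match in these letters is a description of the window and not a binding site.

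Expression was measured as FPKM, fragments counted on a gene and scaled to its transcript length and to the size of the library, so that levels of different genes can be compared per length. Libraries were estimated to hold 14850000 to 25450000 fragments (median, 20300000), which gives about 96 to 347 fragments per tumor for *Foxf2*, 866 to 2549 for *Thbd* and 2406 to 7182 for *Plpp3*. These estimates come from the steps between low FPKM values and cover counting error only. Of the osteoblast markers, *Runx2* and *Spp1* were expressed in tumors of both hosts (mean *Runx2*, 4.87 to 6.86 FPKM over the 4 groups), whereas *Sp7*, *Ibsp* and *Dlx5* did not reach a mean of 0.1 FPKM in either host. The mean log2 level of T and NK cell markers was 2.86 and 2.99 in the Balb/c groups and 0.26 in both NSG groups. The Y-linked gene *Eif2s3y* was at 0 in all Balb/c tumors and at 5.64 to 14.4 FPKM in the NSG tumors. The paper describes both the NSG hosts and the K7M2 line as female, and the same line gave the Balb/c tumors. The Y-linked RNA thus does not match the described sex of the NSG hosts. Its part in any comparison between hosts was not tested. *Atrx* itself measured 17.6 ± 7.12 FPKM in *ATRX*-CT and 14 ± 6.54 FPKM in *ATRX*-KD tumors of Balb/c mice (SD, n = 4 each), where the difference of -0.34 on the log2 scale did not pass the test (SE, 0.36; limma, adjusted p = 0.999). In NSG mice, it measured 17.6 ± 4.99 and 10.2 ± 3.47 FPKM (SD, n = 5 each), a difference of -0.74 (SE, 0.22; limma, adjusted p = 0.061). The difference in Balb/c tumors was smaller than its standard error, and their groups overlapped (10.3 to 26.0 and 7.88 to 21.5 FPKM). The bulk RNA of these tumors thus does not show the knock-down at the level of *Atrx*. The paper reports loss of the ATRX protein in the knock-down cell line by Western blot. Tumors also hold host cells, and their part in the *Atrx* RNA was not tested.

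Over the 18 tumors, *Foxf2* was a gene of middling level, with a mean of 4.46 FPKM that exceeded 52.5% of all genes. *Thbd* averaged 20.05 FPKM (76.5% of genes lower) and *Plpp3* 76.0 FPKM (93.9% lower). In every tumor *Plpp3* was the highest and *Foxf2* the lowest of the 3, and their ranges over tumors did not overlap.

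*Foxf2*, the transcription factor, was expressed in all *ATRX*-CT tumors of Balb/c mice at a narrow range of levels. Its values were 5.41, 6.47, 6.18 and 6.32 FPKM in mice 41, 43, 44 and 45. In *ATRX*-KD tumors they were 3.32, 3.09, 2.48 and 2.97 FPKM in mice 56, 58, 59 and 60. All 4 knock-down tumors lay below all 4 control tumors, and the nearest pair was 0.57 apart on the log2 (FPKM + 1) scale. The group means were 6.10 ± 0.474 and 2.96 ± 0.355 FPKM (SD, n = 4 each), so that control tumors had 2.06 times the level of knock-down tumors. On the log2 (FPKM + 1) scale, which understates changes of low genes, the difference was -0.84, with a pooled SD of 0.12.

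*Thbd*, the thrombin receptor, was also lower in all Balb/c knock-down tumors than in any control tumor. Control tumors of Balb/c mice had 31.7, 28.7, 33.6 and 30.2 FPKM, in the same order of mice. Knock-down tumors had 18.1, 16.8, 16.3 and 12.5 FPKM. The gap between the groups was 0.64 on the log2 scale, and the tumor of mouse 60 was the lowest. Means were 31.1 ± 2.12 and 15.9 ± 2.40 FPKM (SD, n = 4 each), a ratio of control to knock-down of 1.95 and a log2 difference of -0.93 (pooled SD, 0.17).

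*Plpp3*, the lipid phosphatase, was high in all Balb/c control tumors, with 107.2, 98.4, 95.3 and 93.6 FPKM. Knock-down tumors had 54.3, 62.9, 57.6 and 41.2 FPKM. No knock-down tumor reached the level of a control tumor, the gap was 0.57 on the log2 scale, and mouse 60 was the lowest here too. Means were 98.7 ± 6.06 and 54.0 ± 9.25 FPKM (SD, n = 4 each), a ratio of 1.83 and a log2 difference of -0.87 (pooled SD, 0.19).

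**Figure D1:**
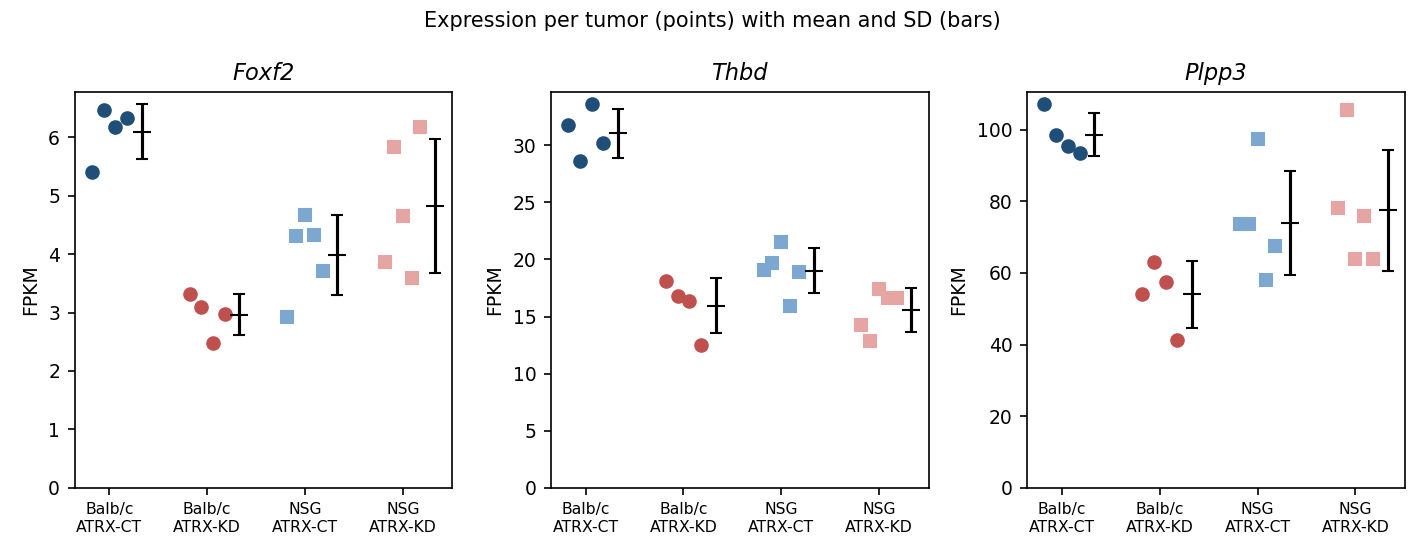
FPKM of *Foxf2*, *Thbd* and *Plpp3* (linear vertical axes from 0) in each tumor of the 4 groups on the horizontal axis, with 1 point per tumor and the group mean ± SD as a bar beside the points. In Balb/c mice the knock-down tumors sit below all control tumors for each gene, with means of 2.96 against 6.10, 15.9 against 31.1 and 54.0 against 98.7 FPKM, whereas the NSG groups overlap.

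Since these differences chose the genes, their place among all genes is only a description. Ordered from the lowest log2 difference in Balb/c tumors, *Thbd* ranked 46, *Plpp3* 57 and *Foxf2* 64 of 14701 genes tested. Across these genes, *ATRX*-KD tumors lay below all *ATRX*-CT tumors for 283 (1.93%) and above all of them for 184 (1.25%). Of 226 genes that averaged 1 FPKM or more and lay lower without overlap, the 3 genes ranked 22, 27 and 28 by log2 difference. An adjusted p under 0.05 with a change of at least 2-fold was reached by 1 gene in either direction (0.0068%), the mast cell protease *Mcpt2*, which was named after its values were seen. An unadjusted p under 0.05 was reached by 356 genes that were lower (2.42%) and 253 that were higher (1.72%). The rule that chose the genes states no numerical threshold, so there are no genes just outside it to set beside them.

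Some Balb/c libraries stood apart in markers of skin. The mean log2 level of 10 keratinocyte genes was 2.94 in 1 control tumor (mouse 45) and 1.15 in 1 knock-down tumor (mouse 60), whereas the other 6 had 0.22 to 0.30. Without mouse 45, the log2 differences were -0.83 for *Foxf2*, -0.94 for *Thbd* and -0.90 for *Plpp3*. Without mouse 60, they were -0.84, -0.82 and -0.75. The groups of each gene still did not overlap, since fewer tumors cannot add an overlap. In these bulk samples, fewer cells of a type and less RNA per cell cannot be told apart.

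In NSG mice the question was whether the same genes differed by knock-down in tumors that had not been used to choose them. None of the 3 did at the threshold. *Foxf2* measured 2.92, 4.30, 4.67, 4.32 and 3.71 FPKM in control tumors of mice 1 to 5. In knock-down tumors of mice 26 to 30 it measured 3.86, 5.83, 4.65, 3.58 and 6.17 FPKM. The 2 highest values were in knock-down tumors and the lowest in a control tumor, but the groups overlapped. The means were 3.99 ± 0.687 and 4.82 ± 1.15 FPKM (SD, n = 5 each). The difference of 0.21 on the log2 (FPKM + 1) scale had the opposite sign to that in Balb/c mice and did not pass the test (SE, 0.15; limma, adjusted p = 0.403; exact two-sided permutation test, p = 0.222). Its 95% confidence interval ran from -0.12 to 0.54.

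*Thbd* was the one gene that was lower on average in knock-down tumors of both hosts. Its values in NSG mice were 19.1, 19.7, 21.5, 16.0 and 18.9 FPKM in control tumors. In knock-down tumors they were 14.2, 12.8, 17.4, 16.6 and 16.6 FPKM. Of the knock-down tumors, 2 of 5 lay below all control tumors, and the other 3 exceeded only the control tumor of mouse 4. The means were 19.0 ± 2.01 and 15.5 ± 1.92 FPKM (SD, n = 5 each), a ratio of knock-down to control of 0.817. The log2 difference of -0.28 (SE, 0.11; 95% confidence interval, -0.51 to -0.043) had an unadjusted exact two-sided permutation p of 0.0317, and this design allows no p below 0.0079. In the limma fit of all genes its unadjusted p was 0.0246 and its adjusted p was 0.128, so it was not called. It was 1 of 1835 genes (12.5%) that were lower in NSG knock-down tumors at an unadjusted p under 0.05. When the trend of each library with transcript length was removed, the difference became -0.34 and its adjusted p 0.0474, still under 2-fold, and with weights per library it was -0.14 (adjusted p = 0.209).

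*Plpp3* showed no difference by knock-down in NSG mice beyond the spread between tumors. Control tumors had 73.6, 73.6, 97.4, 58.1 and 67.5 FPKM. Knock-down tumors had 78.2, 105.5, 64.0, 75.8 and 63.9 FPKM. Each group had 1 tumor near the level of the Balb/c control tumors, mouse 3 among controls and mouse 27 among knock-downs. The means were 74.1 ± 14.5 and 77.5 ± 17.0 FPKM (SD, n = 5 each), with a log2 difference of 0.060 (SE, 0.16; limma, adjusted p = 0.851; exact two-sided permutation test, p = 0.722). Its 95% confidence interval ran from -0.29 to 0.41. Without control mouse 4 the difference was -0.021 and without knock-down mouse 27 it was -0.057 (limma, adjusted p = 0.959 and 0.840).

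There were more calls over all genes in NSG tumors, with 5 a group, than in Balb/c tumors, with 4 a group, although none of the 3 genes was among them. In NSG mice, 68 of 14654 genes (0.464%) passed an adjusted p under 0.05 and 2-fold. An unadjusted p under 0.05 and a higher level was found for 2018 genes (13.8%). Groups without overlap were found for 460 lower (3.14%) and 639 higher genes (4.36%), and none of the 3 genes belonged to either set.

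Across the 4 groups, the order of levels was the same for *Foxf2* and *Plpp3*. Balb/c control tumors had the highest mean, followed by NSG knock-down, NSG control and Balb/c knock-down tumors, and the ranges of each pair of neighbors in this order overlapped. For *Thbd*, Balb/c control tumors were again highest and did not overlap with the next group. NSG control, Balb/c knock-down and NSG knock-down tumors followed, with overlapping neighbors. Among control tumors, the Balb/c mean was 1.53 times the NSG mean for *Foxf2* and 1.63 times for *Thbd*, without overlap, and 1.33 times for *Plpp3*, with overlap. Among knock-down tumors, it was 0.615 times the NSG mean for *Foxf2* and 0.697 times for *Plpp3*, both without overlap, and 1.03 times for *Thbd*, with overlap. The NSG groups thus lay between the Balb/c groups for *Foxf2* and *Plpp3*, whereas for *Thbd* 3 of the groups lay together below the Balb/c controls. These comparisons of hosts share the Balb/c tumors that chose the genes and are given without a test, and so is the difference between the hosts in the effect of knock-down.

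The 3 genes were next compared with each other within the groups, to see whether tumors with more of one also had more of another. In the 10 NSG tumors, deviations from the group means on the log2 scale showed no relation past the threshold between *Foxf2* and *Thbd* (Pearson r = -0.089, permutation p = 0.825; Spearman rho = -0.030, permutation p = 0.948). The same held between *Foxf2* and *Plpp3* (r = 0.15, permutation p = 0.704; rho = -0.067, permutation p = 0.873) and between *Thbd* and *Plpp3* (r = -0.10, permutation p = 0.812; rho = -0.10, permutation p = 0.795). Over the 24 relations computed, the adjusted permutation p of each of these r was 0.859. Without the 2 tumors farthest from the median, r was 0.075, 0.23 and 0.086. In the 8 Balb/c tumors, r within groups was 0.041, -0.22 and 0.75 for the same pairs, given as a description. The higher value for *Thbd* and *Plpp3* includes mouse 60, which was lowest for both. It was not computed without that tumor and may rest on it.

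**Figure D2:**
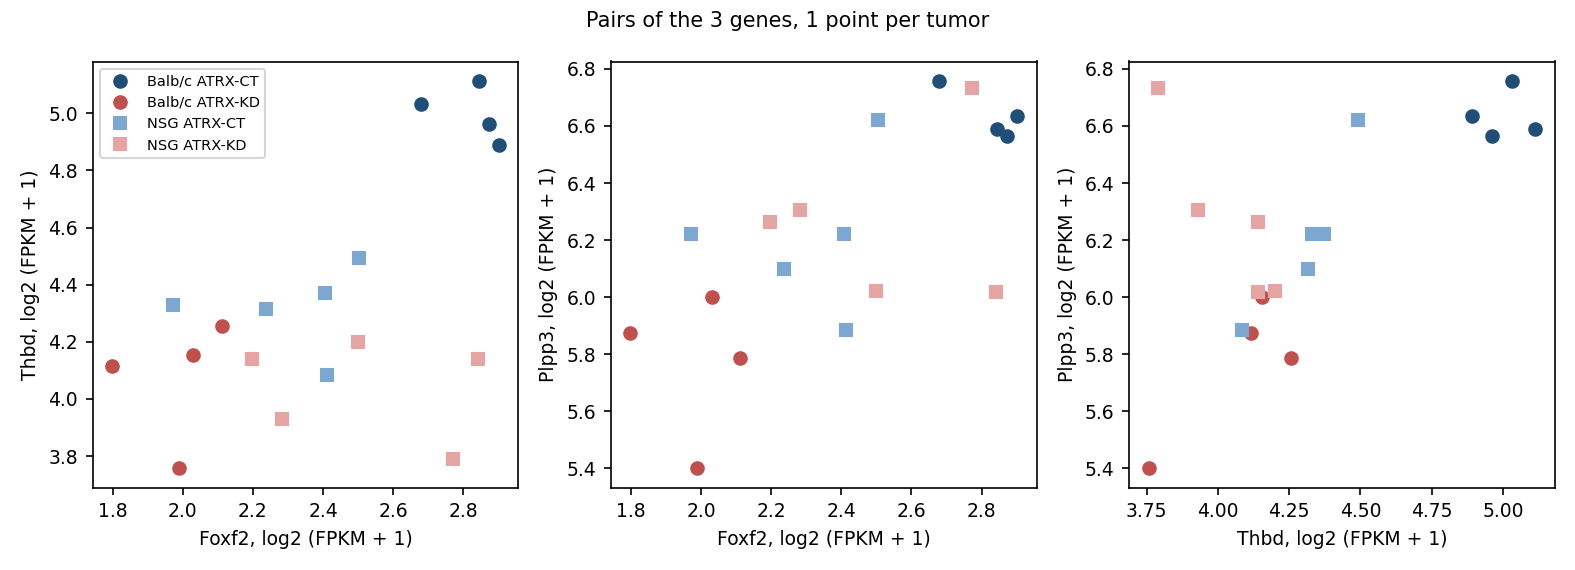
Each pair of the 3 genes on log2 (FPKM + 1) axes, 1 point per tumor, with dark circles for Balb/c and light squares for NSG tumors, blue for *ATRX*-CT and red for *ATRX*-KD. The Balb/c control tumors lie at the upper right of each panel, apart from all others in the panels with *Thbd* and together with the NSG knock-down tumor of mouse 27 in the panel of *Foxf2* and *Plpp3*, and the 10 NSG tumors show no relation past the threshold within their groups (r = -0.089, 0.15 and -0.10).

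Marker lists of the cell types in which the 3 genes are known to act were set beside them. In Balb/c mice, the mean log2 level of 12 endothelial genes was 2.66 in control tumors (range, 2.29 to 2.91) and 3.14 in knock-down tumors (2.58 to 3.8). Of these 12 genes, 4 were higher at an unadjusted p under 0.05 (*Cldn5*, *Egfl7*, *Emcn* and *Esam*), 0 were lower and 0 were called. The level of *Thbd* was lower in the same tumors, and which cells of these tumors carried it was not tested. The mean of 11 pericyte and smooth muscle genes was 2.00 in control tumors (1.84 to 2.27) and 2.07 in knock-down tumors (1.82 to 2.29), with 1 of 10 tested genes higher at an unadjusted p under 0.05 (*Kcnj8*) and 0 lower, although *Pdgfrb* measured 12.7 ± 5.03 and 7.94 ± 3.56 FPKM (SD, n = 4 each; log2 difference, -0.62; limma, unadjusted p = 0.104). That of 9 fibroblast genes was 3.15 (2.83 to 3.60) and 3.17 (2.96 to 3.37). In the fibroblast list 1 of 9 genes, *Col14a1*, was lower and without overlap, with 1.71 ± 0.297 and 0.870 ± 0.293 FPKM (SD, n = 4 each; log2 difference, -0.54; limma, unadjusted p = 0.00354, adjusted p = 0.565), and 0 were higher. The mean of 10 macrophage and monocyte genes differed by -0.042. The part of these cell types in the levels of the 3 genes was not tested. No gene of these 4 lists was at 0 in a whole group.

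Of the 9 mast cell genes, 6 were lower in Balb/c knock-down tumors at an unadjusted p under 0.05, beside 2.42% of all genes. The other genes, *Kit*, *Gata2* and *Hdc*, differed by -0.14, -0.017 and 0.095. The mean log2 level of the list was 3.67 in control tumors (3.28 to 4.21) and 2.6 in knock-down tumors (2.2 to 3.1), with no gene at 0 in a whole group. Skeletal muscle (1.9 and 1.3) and keratinocyte lists (0.95 and 0.49) were also lower on average. The adipocyte list was higher (1.30 and 1.81), and the ranges of all these lists but the mast cell list overlapped. The osteoblast list was higher without overlap, at 2.01 to 2.11 in control and 2.16 to 2.44 in knock-down tumors. Of its 5 tested genes, 1 was higher at an unadjusted p under 0.05 (*Phex*, log2 difference, 1.05, limma, adjusted p = 0.413) and 0 were lower. In NSG mice the means of the mast cell list were 2.32 and 2.80. Whether mast cells contribute to the levels of *Foxf2*, *Thbd* or *Plpp3* was not tested. In NSG knock-down tumors, the endothelial list was higher by 0.67, while *Thbd* was not. Of its genes, 12 of 12 were higher at an unadjusted p under 0.05, beside 13.8% of all genes. *Cldn5*, *Pecam1* and *Tie1* passed the adjusted threshold (limma, adjusted p = 0.0240, 0.0280 and 0.0368) but not 2-fold, so 0 were called. In the pericyte and smooth muscle list, *Mcam* was called higher (log2 difference, 1.06, limma, adjusted p = 0.0483). At an unadjusted p under 0.05, 2 of its 10 tested genes were higher and 1 lower. Other lists and genes differed in both directions in the same NSG tumors. The fibroblast list was at 3.42 in control and 3.95 in knock-down tumors, and the adipocyte list at 1.38 and 2.21, both with overlapping ranges. The macrophage and monocyte list was at 6.62 in control tumors (6.34 to 6.85) and 6.32 in knock-down tumors (6.13 to 6.49), with 7 of 10 genes lower and 1 higher at an unadjusted p under 0.05. *Eif2s3y* measured 13.3 ± 1.42 and 7.99 ± 2.27 FPKM (SD, n = 5 each; limma, adjusted p = 0.0306) and the Y-linked *Uty* 4.85 ± 0.909 and 2.16 ± 0.418 FPKM (limma, adjusted p = 0.00968), both without overlap. The part of these lists and genes in the difference of *Thbd* was not tested.

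Within the NSG groups, the closest relation to a cell type list was that of *Thbd* with the fibroblast genes. It had r = 0.83 (permutation p = 0.00638, adjusted permutation p = 0.153) and rho = 0.94 (permutation p = 0.00287, adjusted permutation p = 0.0689) over 10 tumors, with r = 0.89 without the 2 farthest tumors. It did not pass the adjustment over the 24 relations with all tumors, and it did so without knock-down mouse 26 (r = 0.93, adjusted permutation p = 0.0300) or mouse 27 (r = 0.83, adjusted permutation p = 0.0300). *Plpp3* and the pericyte and smooth muscle list had r = 0.67 (permutation p = 0.0162, adjusted permutation p = 0.194; rho = 0.50, permutation p = 0.0824), which fell to 0.31 without the 2 farthest tumors and passed the adjustment without mouse 26 (r = 0.69, adjusted permutation p = 0.0312). *Thbd* and the endothelial list had r = 0.62 (permutation p = 0.0731, adjusted permutation p = 0.585; rho = 0.67, permutation p = 0.0428), with r = 0.37 without the 2 farthest tumors. Of the 24 relations, 2 had an unadjusted permutation p under 0.05 for r and 0 an adjusted one.

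Genes around the 3 loci and their closest relatives were then examined, to see whether the lower levels extended to them. Near *Foxf2*, *1700018A04Rik* (43.3 kb away) and the forkhead gene *Foxq1* (64.8 kb) were too low to test. *Foxc1*, another forkhead gene 175 kb downstream, measured 5.17 ± 0.471 FPKM in control and 3.84 ± 0.852 FPKM in knock-down tumors of Balb/c mice (SD, n = 4 each). This difference of -0.37 had an unadjusted p of 0.0489 and an adjusted p of 0.999 (limma), and in NSG mice it was 0.11. *Exoc2* and *Gmds*, the nearest other tested genes on the 2 sides, differed by -0.024 and -0.18 in Balb/c tumors. *Foxf1*, the closest relative of *Foxf2* and on another chromosome, had a higher level than *Foxf2* in all groups and differed little, with 46.1 ± 6.38 and 42.5 ± 9.01 FPKM in Balb/c mice (log2 difference, -0.13) and 44.5 FPKM in both NSG groups.

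Near *Thbd*, the somatostatin receptor gene *Sstr4* (7.71 kb) was too low to test. *Cd93*, which lies 28.5 kb away and encodes a receptor of the same C-type lectin group as thrombomodulin, measured 37.5 ± 6.48 and 35.9 ± 10.3 FPKM in Balb/c control and knock-down tumors (SD, n = 4 each; log2 difference, -0.096) and differed by -0.049 in NSG mice. *Clec14a* of the same group was higher in Balb/c knock-down tumors without overlap (1.82 and 3.19 FPKM; log2 difference, 0.54; limma, unadjusted p = 0.0301, adjusted p = 0.999). *Gzf1*, 273 kb away, was lower without overlap in Balb/c tumors (18.9 and 15.3 FPKM; log2 difference, -0.29; limma, adjusted p = 0.999). *Nxt1*, 264 kb away, measured 53.6 and 46.6 FPKM in Balb/c control and knock-down tumors, with overlap (log2 difference, -0.25). On the other side of *Thbd*, *Foxa2* differed by 0.21. *Thbd* thus had measured neighbors with smaller differences in both directions.

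Near *Plpp3*, the kinase subunit gene *Prkaa2* (47.4 kb) differed by -0.31 in Balb/c and -0.086 in NSG tumors, and *Usp24* (1083 kb) by -0.29 and -0.17, with no call. The other lipid phosphate phosphatases had lower mean levels than *Plpp3*. *Plpp1* measured 25.3 FPKM in Balb/c control and 34.2 FPKM in knock-down tumors, a log2 difference of 0.43 in the opposite direction (limma, adjusted p = 0.999). *Plpp2* measured 35.5 ± 11.1 and 29.6 ± 5.07 FPKM (SD, n = 4 each; log2 difference, -0.23). In Balb/c mice 1 of 14701 genes (0.0068%) was called, and no neighbor or relative of the 3 genes was.

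**Figure D3:**
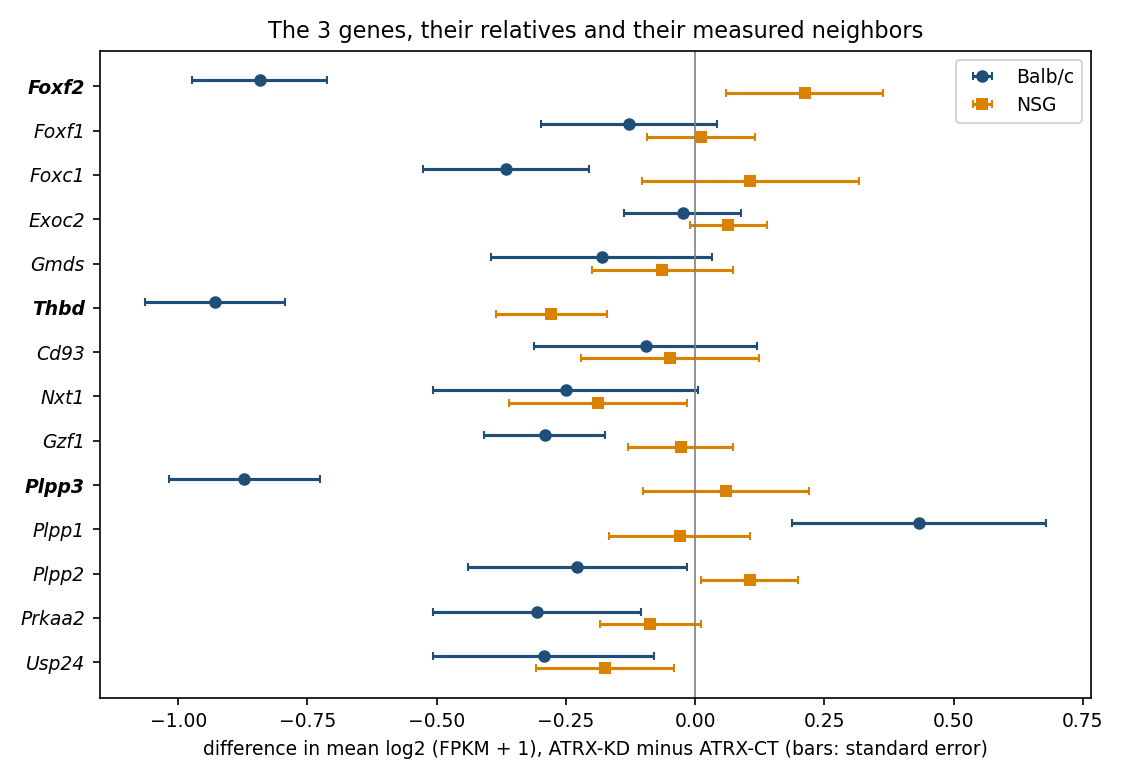
Difference in mean log2 (FPKM + 1), *ATRX*-KD minus *ATRX*-CT, for the 3 genes (bold) and below each its relatives and measured neighbors, with blue circles for Balb/c, orange squares for NSG tumors and bars for the standard error. In Balb/c tumors the 3 genes sit at -0.84, -0.93 and -0.87, left of *Foxc1* (-0.37), *Cd93* (-0.096) and *Plpp1* (0.43), and in NSG tumors they sit at 0.21, -0.28 and 0.060.

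The wider pathways were described by 9 lists of 109 further genes. In Balb/c tumors, 85 of them could be tested and 0 were called in either direction, beside 0.0068% of all genes. At an unadjusted p under 0.05, 5 were lower (5.88%) and 4 higher (4.71%), beside 2.42% and 1.72% of all genes, and their median log2 difference was -0.013, beside -0.0032 for all genes. In NSG tumors 80 were tested and 0 called, beside 0.464% of all genes. There, 6 were lower (7.5%) and 17 higher (21.3%) at an unadjusted p under 0.05, beside 12.5% and 13.8% of all genes. Their median was 0.095 beside -0.0014. The shares of these genes were thus above those of all genes in both directions in Balb/c mice, and on the higher side alone in NSG mice. The Balb/c shares rest on 5 and 4 genes. The lists were chosen with earlier results of these data known, so these shares are only a description. The unadjusted p-values below are from limma, and no gene of these lists passed the adjustment in Balb/c mice.

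Among the forkhead genes, 1 of 10 tested was lower in Balb/c knock-down tumors (*Foxc1*, above) and 1 higher. The latter was *Foxc2*, a factor of lymphatic and mesenchymal development, which measured 0.430 ± 0.520 and 2.35 ± 1.36 FPKM in Balb/c mice (log2 difference, 1.20; unadjusted p = 0.00452, adjusted p = 0.622). In NSG mice 3 of 10 were higher and 0 lower. *Foxl1* measured 0.558 and 1.09 FPKM there, with no overlap (log2 difference, 0.42; adjusted p = 0.0192), which is under 2-fold. *Foxm1*, a factor of dividing cells, and *Foxc2* differed by 0.44 and 0.41 (adjusted p = 0.0556 and 0.179).

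The hedgehog list, upstream of *Foxf2*, had 1 of 9 genes higher and 0 lower in Balb/c tumors. This was *Gas1*, a co-receptor of hedgehog ligands, with 21.9 ± 2.07 and 33.6 ± 10.03 FPKM (log2 difference, 0.56; unadjusted p = 0.0204, adjusted p = 0.999). *Gas1* was also higher in NSG knock-down tumors, with 20.5 ± 4.74 and 32.1 ± 6.06 FPKM (log2 difference, 0.63; adjusted p = 0.0440). The hedgehog receptor gene *Ptch1* differed by 0.020 in Balb/c and 0.077 in NSG tumors. *Gli1* differed by 0.086 in Balb/c tumors, at low levels (0.098 and 0.17 FPKM). Whether hedgehog signaling had a part in the levels of *Foxf2* was not tested. In NSG mice the transcription factor *Gli3* was higher (0.48, unadjusted p = 0.0206) and the co-receptor *Boc* lower (-0.21, unadjusted p = 0.0354). Of the Wnt ligands and secreted antagonists, downstream of *Foxf2*, 0 of 8 differed in Balb/c tumors at an unadjusted p under 0.05. In NSG tumors 3 of 9 were higher, of which *Wnt5a* was the most expressed, with 2.01 and 3.73 FPKM (log2 difference, 0.61; adjusted p = 0.0774), and the others were *Wnt2* and *Wnt5b*.

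Of the thrombin, protein C and fibrinolysis genes, around *Thbd*, 2 of 20 were lower in Balb/c knock-down tumors and 0 higher. Both were receptors cleaved by clotting or other proteases. *F2rl1* measured 5.19 ± 2.68 and 1.75 ± 1.03 FPKM (SD, n = 4 each), with overlapping groups (log2 difference, -1.15; unadjusted p = 0.0141, adjusted p = 0.928). *F2rl2* measured 5.27 ± 1.71 and 2.53 ± 0.632 FPKM, without overlap (log2 difference, -0.81; unadjusted p = 0.00403, adjusted p = 0.598). The thrombin receptor *F2r* and the protein C receptor *Procr*, partners of thrombomodulin, differed by -0.17 and -0.27. *Plau*, the urokinase gene and the most expressed of the list, measured 251 and 212 FPKM. In NSG mice 2 of 19 were lower (*Gas6* at -0.47 and *F8* at -0.15) and 2 higher. *F3*, the tissue factor gene, was higher by 0.45, and the adjusted p of these 3 named genes was between 0.130 and 0.190. The median of the list was -0.12 in Balb/c and -0.0093 in NSG tumors.

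Of the genes around *Plpp3*, 0 of 8 other lipid phosphate phosphatase genes differed in Balb/c tumors at an unadjusted p under 0.05, and 1 of 7 was higher in NSG tumors. This was *Plpp5*, with 17.6 and 21.5 FPKM and no overlap (log2 difference, 0.28; adjusted p = 0.0700). Among the lysophosphatidic acid genes, the receptor *Lpar1* was the 1 of 8 that was higher in Balb/c knock-down tumors, with 12.0 ± 1.52 and 16.3 ± 3.16 FPKM (log2 difference, 0.40; unadjusted p = 0.0323). *Enpp2*, which encodes the enzyme that makes lysophosphatidic acid, measured 2.77 and 4.12 FPKM (log2 difference, 0.48) without passing an unadjusted p of 0.05 in Balb/c mice. In NSG mice *Lpar1* and *Enpp2* were higher by 0.42 and 0.64 and *Liph* lower by a difference of -0.18, with adjusted p of 0.0670, 0.181 and 0.0718. Among the sphingosine 1-phosphate genes, the exporter gene *Spns2* was the 1 of 12 that was lower in Balb/c tumors, with 11.9 ± 3.7 and 7.20 ± 2.76 FPKM (log2 difference, -0.67; unadjusted p = 0.0460). The receptor *S1pr1* differed by 0.30, and in NSG mice the receptor *S1pr3* was higher by 0.62 and the phosphatase *Sgpp1* lower at -0.20 (adjusted p = 0.0553 and 0.135).

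*Klf2* and *Klf4* are the flow-responsive factors upstream of *Thbd*. In Balb/c control and knock-down tumors, *Klf2* measured 32.4 and 32.7 FPKM (log2 difference, 0.0067) and *Klf4* 36.1 and 42.3 FPKM (0.23). Which cells carried them, and whether they had a part in the levels of *Thbd*, was not tested. Of the 7 tested genes of this list, the 1 that was lower was *Edn1*, the endothelin gene, with 4.38 ± 1.92 and 2.01 ± 0.687 FPKM and no overlap (log2 difference, -0.81; unadjusted p = 0.0121, adjusted p = 0.875). *Edn1* differed by -0.81 in NSG mice too, with overlap (adjusted p = 0.179). *Angpt2*, a ligand of activated endothelium, was higher in NSG knock-down tumors without overlap, at 2.02 and 4.02 FPKM (log2 difference, 0.71; adjusted p = 0.0240), and *Nos3* was higher by 0.41 (adjusted p = 0.0623).

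**Figure D4:**
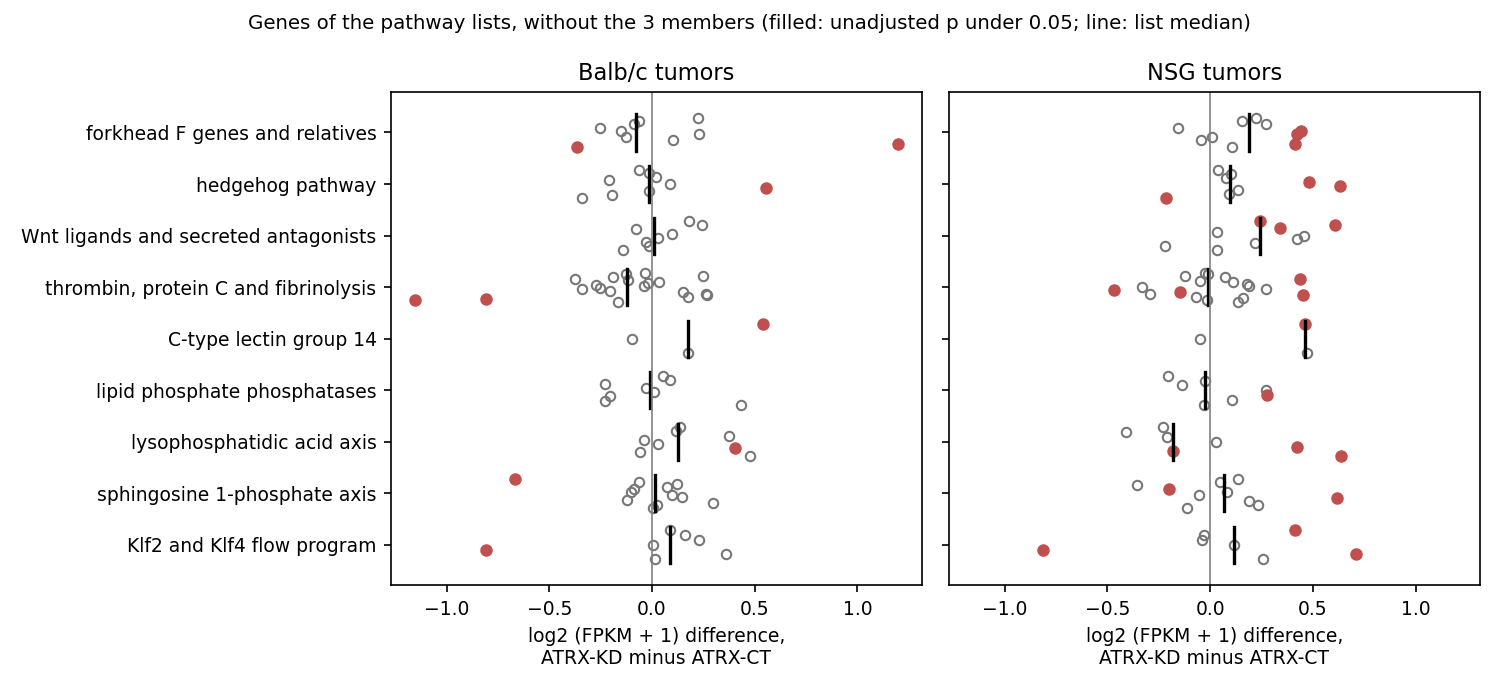
Log2 (FPKM + 1) difference, *ATRX*-KD minus *ATRX*-CT, of each tested gene of the 9 pathway lists without the 3 genes themselves, in Balb/c (left) and NSG tumors (right), with filled points for an unadjusted p under 0.05 and a vertical line for the list median. List medians lie close to 0 in Balb/c tumors (-0.12 to 0.17) and 17 of 80 genes are filled on the higher side in NSG tumors.

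The genes whose levels most resembled those of the 3 genes over the 18 tumors were sought among 12181 genes that averaged 1 FPKM or more. Since the tumors share the difference that chose the genes, these values only describe the pattern. *Foxf2* was most like *Lif* (r = 0.82), a secreted cytokine, followed by *Ttc13* (0.80) and *Prdm4* (0.79). *Lif* measured 2.35, 1.56, 1.88 and 2.30 FPKM in Balb/c control, Balb/c knock-down, NSG control and NSG knock-down tumors, the order of levels that *Foxf2* had. *Thbd* was most like *Tm9sf2* (0.87), *Plk3* (0.84) and *Tmtc4* (0.83). *Tm9sf2* measured 90.0, 60.6, 71.6 and 59.2 FPKM in the same groups, with the Balb/c control tumors highest as for *Thbd*. *Plpp3* was most like *Pmepa1* (0.85), *Myo6* (0.83) and *Gkap1* (0.82), and *Myo6* measured 5.57, 3.59, 4.34 and 4.12 FPKM. The 3 genes were not each other's nearest: *Plpp3* ranked 21 in likeness to *Foxf2* (r = 0.69), *Plpp3* ranked 140 in likeness to *Thbd* (r = 0.62), and *Thbd* ranked 207 in likeness to *Foxf2* (r = 0.56).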

How the data were processed

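RNA of 18 K7M2 tumors was grouped by host and shRNA from the labels. The authors aligned reads to mm10 with STAR (2.6.0c), quantified genes with Cufflinks (2.2.1) and ran their own differential analysis with DESeq. The deposited values are log2 (FPKM + 1) per gene and tumor, for 20970 rows including 92 ERCC spike-ins (1.39% to 2.93% of each library), which were left out. Base 2 was inferred from the data: the sum of FPKM times transcript length was 1.10 to 1.13 times its expected total with base 2 and 8.45 to 11.2 times with the natural log. Depth was estimated from steps between low values with fragments of 160 nt. Since 35.9% to 41.4% of low values came within 0.1 of a whole number of fragments (20% by chance), whole reads were not recovered and no count test was run.

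Each host was fitted with limma 3.58.1 (R 4.3.3; functions lmFit and eBayes, trend option) to the log2 values (pseudocount, 1) of genes that averaged 0.1 FPKM or more, with Benjamini-Hochberg adjustment over all genes. Genes were called at an adjusted p under 0.05 and 2-fold. The steps were tested on simulated data. Single values in NSG tumors were compared by exact permutation tests, and correlations by 100000 permutations of deviations from group means. P-values measure the spread between tumors of separate mice.

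The 3 genes and all lists were chosen with earlier results of these data known. The text names the 3 genes, *Atrx*, the nearest neighbors, the 3 most similar genes for each by Pearson r, the genes of each pathway list called or with an unadjusted p under 0.05 (at most 4 per list and host) and the most expressed of the list. Relatives, partners and markers with a described role were added. Alternatives were a pseudocount of 0.1, median-ratio scaling, removal of the length trend, other filters, library weights, one fit of 4 groups, no fold threshold and leaving out each tumor.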

Additional observations from a re-analysis of the deposited data

Results flagged for a closer look

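Of 64 sets of values (a gene or a cell type list within a group) checked for a tumor far from the others, 5 held one, where about 1 in 20 sets, or 3.2, would by chance, and none of them was a value of *Foxf2*, *Thbd* or *Plpp3*. The mean log2 level of the keratinocyte list was 2.94 in mouse 45 of the Balb/c *ATRX*-CT group, whose other members had 0.284 to 0.290. It was 1.15 in mouse 60 of the Balb/c *ATRX*-KD group, whose other members had 0.224 to 0.296. The lymphatic endothelial list was at 0.653 in mouse 56 of this *ATRX*-KD group (others, 1.11 to 1.21). The osteoblast list was at 2.44 in mouse 56 as well (others, 2.16 to 2.2). The pericyte and smooth muscle list was at 2.06 in mouse 3 of the NSG *ATRX*-CT group (others, 1.33 to 1.45), and this tumor also had the highest *Plpp3* value of its group.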

How the results depend on the processing

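No paired analysis was possible because the mouse numbers in the labels differ between all groups. The differences of the 3 genes in Balb/c tumors kept their direction under every alternative run. These tumors chose the genes and their groups did not overlap, so a change of direction was hardly possible. The values are therefore only a description. With a pseudocount of 0.1, that of *Foxf2* was -1.02. Leaving out each tumor in turn gave -0.89 to -0.78 for *Foxf2*, -0.99 to -0.82 for *Thbd* and -0.95 to -0.75 for *Plpp3*. In NSG tumors, the *Thbd* difference passed the adjusted threshold when the length trend was removed (-0.34, adjusted p = 0.0474) and in none of the other alternatives, and it was -0.14 with library weights (adjusted p over the alternatives, 0.0474 to 0.209). Leaving out each tumor gave 0.13 to 0.29 for *Foxf2* (limma, adjusted p 0.272 to 0.673), -0.34 to -0.22 for *Thbd* (0.115 to 0.212) and -0.057 to 0.16 for *Plpp3* (0.457 to 0.959). Within-group r in NSG tumors then ran from -0.26 to 0.21 for *Foxf2* and *Thbd*, -0.16 to 0.41 for *Foxf2* and *Plpp3*, and -0.50 to 0.50 for *Thbd* and *Plpp3*, and 0 to 2 of 24 relations passed the adjustment.

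Counts over all genes moved more. In NSG tumors, 43 lower and 25 higher genes were called, against 163 and 63 with a pseudocount of 0.1, 122 and 79 with library weights, and 994 in either direction without a fold threshold. Leaving out a tumor gave 12 to 86 lower and 15 to 42 higher calls, the fewest without knock-down mouse 30 (12 and 15) and the most lower calls without mouse 26 (86). At an unadjusted p under 0.05, 1835 lower and 2018 higher genes became 3298 and 3667 with library weights, and 1371 to 2209 and 1550 to 2609 when a tumor was left out. In Balb/c tumors, the 1 lower call became 0 with the length trend removed, with a mean of at least 1 FPKM or with no filter, 11 with library weights and 6 in one fit of 4 groups, and 0 to 2 when a tumor was left out. The 0 higher calls (253 genes at an unadjusted p under 0.05) became 4 with library weights, 3 in one fit and 0 to 1 when a tumor was left out. The 356 lower and 253 higher genes at an unadjusted p under 0.05 became 923 and 889 with library weights, 408 higher in one fit, and 249 to 510 and 187 to 358 when a tumor was left out. The cause of these changes was not tested. With 4 or 5 tumors a group, and 96 to 347 fragments on *Foxf2*, small differences of that gene were not detectable.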
